A study of Mus musculus with 12 samples.

Results

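The genes described here encode the proteins of the mitochondrial ribosome, named Mrpl for the large subunit and Mrps for the small subunit followed by a number. They were taken from the deposited TPM table (TPM is each gene's share of a library's transcripts, corrected for transcript length and scaled to a fixed total) by their mouse symbols, which were matched to the table's Ensembl identifiers, and pseudogenes were left out. This gave 77 genes of 15651 in the table, 48 named Mrpl and 29 named Mrps. A further 2 rows with such names, Mrpl48-ps and Mrpl23-ps1, were processed pseudogenes, and Mrpl33 was the 1 annotated protein-coding gene of the family that was not analysed here.

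The mitochondrial ribosome translates the few messages of the mitochondrial genome, which encode core subunits of the respiratory chain and of ATP synthase, inside the organelle. Its proteins are all products of nuclear genes and are imported from the cytosol, so that a full particle needs the output of many scattered nuclear genes to be matched with ribosomal RNA made from mitochondrial DNA. Acute myeloid leukaemia cells depend strongly on oxidative phosphorylation, and inhibitors of mitochondrial translation are toxic to them.

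The cells were c-Kit+ splenocytes from moribund mice with acute myeloid leukaemia, on a C57BL/6J background and CD45.2. The D/F mice were Dnmt3afl/fl,Flt3ITD/ITD,Mx1Cre and the T/F mice were Tet2fl/fl,Flt3ITD/ITD,Mx1Cre, so that every group shared homozygous Flt3ITD and the Mx1Cre transgene. The interferon-inducible Mx1Cre was leaky and was not induced with pIpC, and 1 or both floxed alleles were deleted spontaneously, so the dose of Dnmt3a or Tet2 could differ between mice. Cells of each of 3 mice per genotype were divided between DMSO and CCS1477 (inobrodib, an inhibitor of the bromodomain of the acetyltransferases p300 and CBP) for 6 h, giving 12 libraries in 4 groups of 3. D/F cells received 4 µM and T/F cells 2 µM, so that dose and genotype cannot be told apart.

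The columns summed to between 914204 and 931697 TPM, and no counts were given, so depth is unknown. All 6 markers of c-Kit+ myeloid blasts were listed, and their sum was lower with CCS1477, from 2251 to 4219 TPM in D/F DMSO against 492 to 1733 TPM, and from 1833 to 2621 TPM in T/F DMSO against 720.5 to 1234 TPM. Most of the sum was Mpo, at 3673 of 4219 TPM in D/F DMSO replicate 1, though each of the 6 markers was lower in all 6 mice. The lowest D/F DMSO sum, in replicate 2, went with the lowest Mpo (1163 TPM) but the highest Kit (149 TPM), Flt3, Cd34 (447 TPM) and Myb of those libraries. The 4 neutrophil markers summed to between 825 and 5164 TPM, their groups overlapped, and they did not move together. Ly6g and Camp were lower with CCS1477 in all 6 mice, by log2 ratios of -2.07 to -1.01 and -2.97 to -0.78. Ly6g was low in D/F, at 1.68 to 3.12 TPM in DMSO. Ltf was higher in every mouse but D/F replicate 2, at -1.48 to 0.23. S100a8 was higher in D/F replicate 3 and T/F replicate 3 and lower in the others, at -0.76 to 0.10. The 1 macrophage marker of 3 that was listed was also lower with CCS1477, at 1.95 to 3.48 TPM against 5.68 to 8.90 TPM in D/F and 5.01 to 8.89 TPM against 15.3 to 20.5 TPM in T/F. No B cell marker of 3 was listed, 2 T cell markers of 3 summed to between 10.6 and 21.2 TPM, and 3 erythroid markers to between 1.06 and 14.3 TPM. The sum of 3 megakaryocyte markers was lower in the CCS1477 library of all 6 mice, at 20.1 to 63.9 TPM against 32.6 to 199 TPM in D/F DMSO, and at 31.9 to 34.4 TPM against 47.5 to 54.0 TPM in T/F DMSO. Itga2b and Pf4 were lower in all 6 mice, and Gp9 in all but D/F replicate 3, where it went from 0.996 to 1.63 TPM. The part of cell composition in the responses was not tested. D/F replicate 2 stood apart from the other D/F mice. Its DMSO library was the one at 199 TPM for the megakaryocyte markers, with 32.6 and 46.2 TPM in the others, and it held the lowest of the 3 D/F DMSO values for 63 of the 77 mitoribosomal genes and the lowest CCS1477 value for 62.

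Under DMSO the mitoribosomal genes formed a band of moderate and fairly even expression. Their mean TPM over the 6 DMSO libraries ran from 15.6 to 178, with a median of 60.0, against a median of 17.6 over all genes in the table and of 886 over 78 cytosolic ribosomal protein genes. The highest were Mrps18c (D/F DMSO 173, 137 and 165 TPM and T/F DMSO 221, 183 and 191 TPM), Mrpl42, Mrpl12 and Mrps21. The lowest were Mrps31 (19.3, 14.3 and 18.2 TPM in D/F DMSO) and Mrpl23 (13.4, 18.1 and 10.8 TPM). The level of Mrpl23 is uncertain, since its pseudogene Mrpl23-ps1 was listed separately and reads of near-identical copies can be divided between them.

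Promoters are shown because the genes of this family lie on many chromosomes, and what their starts share was not used to choose them. RefSeq windows (GRCm38.p6) from 250 bases before to 50 bases after the start were found for 68 of the 77 genes, in 74 windows, and 4 short motifs were searched on both strands without mismatch. None of the 4 holds another, and the NRF1 core overlaps its own reverse complement. The ETS core CCGGAAG, bound by ETS factors including GABPA, was in 33.78% of the windows of mitoribosomal genes, against 16.52% of 13508 windows of genes in the table and 8.86% of all 32851 windows. The YY1 core AGATGGC was in 16.22% of the windows, against 6.98% of those of listed genes, and the NRF1 core CGCATGC in 9.46% against 5.92%. The E-box CACGTG, bound by MYC with MAX, was in 9.46% against 9.48%. GABPA, NRF1 and YY1 are known regulators of nuclear genes of mitochondrial function. A match is a description of the letters only. In the stretches below, which run from 80 bases before the start to 10 bases after it, capitals mark matches to any of the 4 motifs on either strand.
Mrpl12 (chr11:120484557-120484646, plus strand, no match, the gene with the lowest mean response): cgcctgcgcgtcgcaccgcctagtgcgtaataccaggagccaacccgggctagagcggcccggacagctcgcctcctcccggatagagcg
Mrpl36 (chr13:73330929-73331018, plus strand, E-box then YY1 core): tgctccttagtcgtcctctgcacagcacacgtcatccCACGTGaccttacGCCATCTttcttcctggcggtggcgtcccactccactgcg
Mrps27 (chr13:99344706-99344795, plus strand, ETS core): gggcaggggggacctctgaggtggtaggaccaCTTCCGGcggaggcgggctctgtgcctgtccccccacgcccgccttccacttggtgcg
Mrpl22 (chr11:58171584-58171673, plus strand, ETS core then NRF1 core): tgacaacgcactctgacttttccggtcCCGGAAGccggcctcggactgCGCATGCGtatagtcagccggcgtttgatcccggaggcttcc
Mrpl58 (chr11:115403672-115403761, plus strand, 2 ETS cores, a gene that rose in T/F): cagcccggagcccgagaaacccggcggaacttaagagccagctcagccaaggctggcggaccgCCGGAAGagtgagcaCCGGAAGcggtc
Mrpl14 (chr17:45686269-45686358, plus strand, no match, the gene with the highest mean response): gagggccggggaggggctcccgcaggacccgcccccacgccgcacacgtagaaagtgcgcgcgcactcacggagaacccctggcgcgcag

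With CCS1477, a few mitoribosomal genes were steeply lower in both genotypes, led by Mrpl12, Mrps18b and Mrpl19, many were slightly lower and a minority, led by Mrpl14, was higher. In T/F, 24 of the 77 genes fell and 4 rose (limma, adjusted p under 0.05, any fold). The percentages called among all genes were 17.6 lower and 25.8 higher, so that 31.2% of the mitoribosomal genes were called lower and 5.19% higher. With the libraries quantile normalized, 24 fell and 8 rose, a setting for which the shares of all genes are not given here. Without T/F replicate 1, 2 or 3 the genes that fell numbered 13, 12 and 19 (16.9%, 15.6% and 24.7%, beside 10.1%, 9.47% and 14.5% of all genes), and those that rose 1, 0 and 2 (beside 12.7%, 11.5% and 19.2%). In D/F, 3 genes fell, Mrps18b, Mrpl36 and Mrpl50, and none rose, which is 3.90% of the family, while 6.51% of all genes were called lower and 5.14% higher. Without D/F replicate 1 or replicate 3 no gene of the whole table was called, so that those fits say nothing of the family, and without replicate 2 there were 7 lower (9.09%, beside 10.8% of all genes) and 0 higher (beside 13.8%). All 3 genes that fell in D/F also fell in T/F, so that 3.90% of the family was lower in both. Of all genes, 1009 were called lower in D/F, and 897, or 5.91% of those tested in both genotypes, were called lower in both.

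The labels tie the DMSO and CCS1477 libraries of each number to a single mouse. When the mouse entered the fit as a block, 20 genes fell and 3 rose in D/F, beside 18.0% and 21.4% of all genes, and 26 fell and 5 rose in T/F, beside 22.9% and 31.2%. The 20 included the genes of steepest response that had missed the threshold in D/F, among them Mrpl12, Mrpl19, Mrpl47 and Mrps27. Without D/F replicate 2 the block gave 10 lower and 2 higher in D/F (13.0% and 2.60%, beside 15.2% and 17.8% of all genes). No gene of the family was called at 2-fold or more higher in either genotype, where 2.67% of all genes were so called in D/F, and 2.63% in T/F.

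Counted without a threshold, 58 of the 77 genes were below 0 in D/F, beside 7005 of all 15501 genes tested. In T/F 56 were, beside 6531 of 15256. For D/F the median log2 fold change of the family was -0.22, against 0.06 over all genes tested, and for T/F it was -0.12 against 0.07. In each of 6 mice, 38 genes (49.4%) were lower in the CCS1477 library, against 24.5% of all genes, and 12 (15.6%) were higher, against 32.3%. The CCS1477 and DMSO values did not overlap, with CCS1477 lower, in D/F for 16 genes (20.8%, where 16.7% of all genes did so) and in T/F for 36 (46.8%, where 22.6% did). With CCS1477 higher they did not overlap in D/F for 5 genes (6.49%, where 19.9% of all genes did so) and in T/F for 11 (14.3%, where 33.5% did). Without D/F replicate 2, 56 genes were below 0 in D/F (72.7%, beside 43.5% of all genes). In the 5 remaining mice 40 genes were lower throughout (51.9%, beside 26.0% of all genes) and 12 higher (15.6%, beside 36.5%). Its 2 against 2 values then did not overlap for 41 lower genes (53.2%, beside 29.1% of all genes) and 13 higher ones (16.9%, beside 40.2%), separation being easier with fewer values. Values of 3 against 3 cannot give an exact permutation p below 0.1, two-sided. In these bulk samples, fewer cells of a type and less RNA per cell cannot be told apart.

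**Figure D1:**
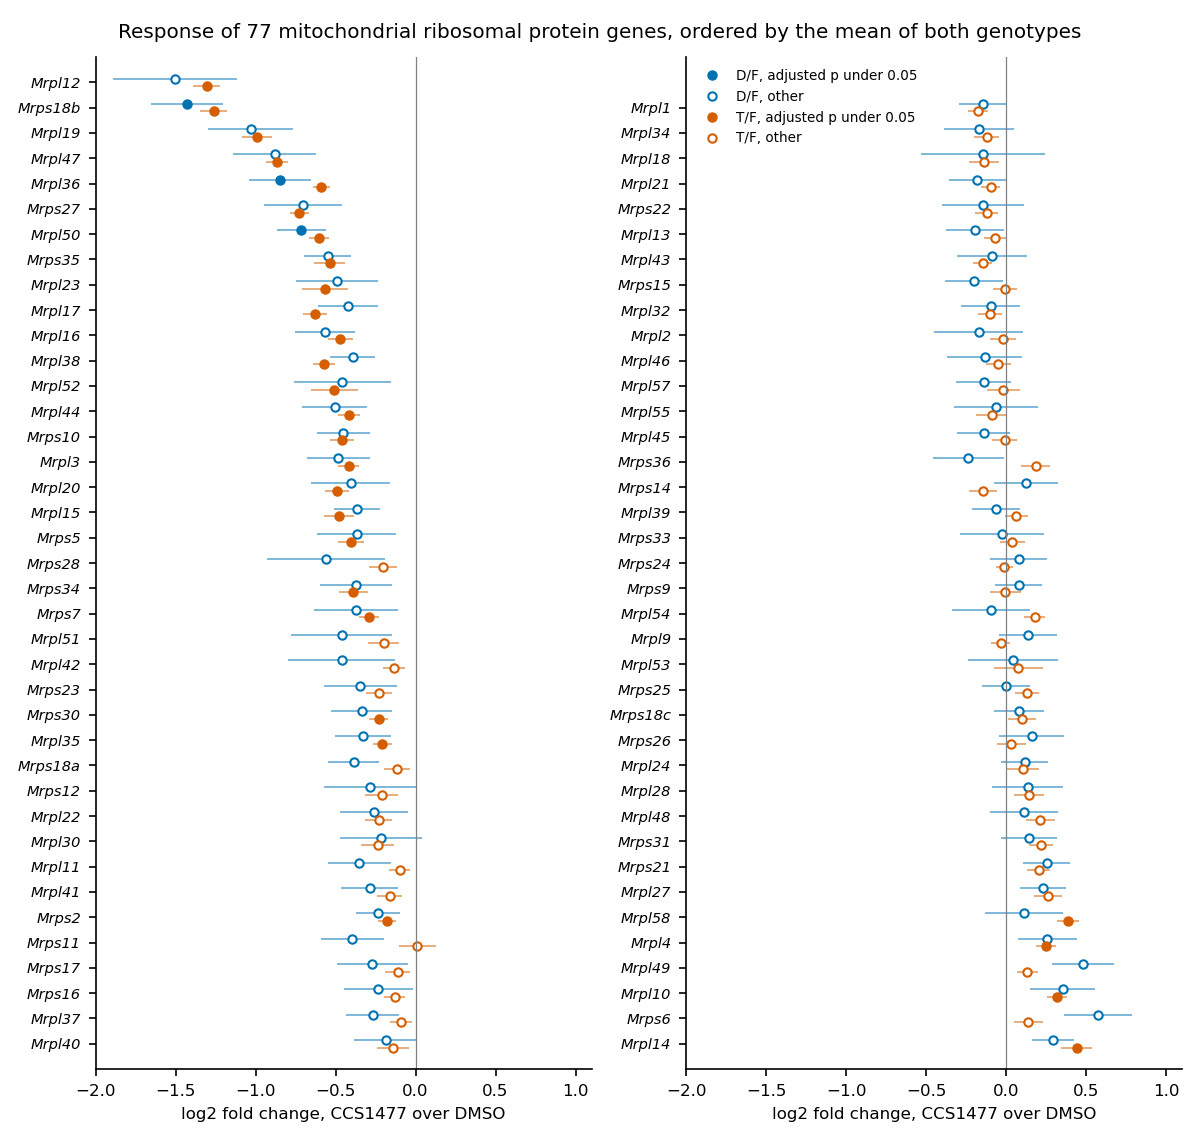
Log2 fold change (CCS1477 over DMSO, on the log2(TPM + 1) scale) of each of the 77 genes on the horizontal axis, with genes in rows ordered by the mean of D/F (blue) and T/F (orange); bars are standard errors from limma and filled points passed an adjusted p of 0.05. A few genes reach below -1, most lie between -0.5 and 0, and the D/F errors are wider than the T/F errors.

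Summed over all 77 genes, D/F DMSO libraries held 4952, 4207 and 5602 TPM and their CCS1477 libraries 4310.3, 3654 and 4707 TPM, for replicates 1, 2 and 3. The corresponding sums in T/F were 5382, 5135 and 5185 TPM in DMSO and 4742, 4678 and 4629 TPM in CCS1477. The CCS1477 sum was thus lower in every mouse, at 86.0 ± 1.7% of DMSO in D/F and 89.5 ± 1.5% in T/F (SD, n = 3 mice each). D/F replicate 2 had the lowest sum in either condition and nearly the same ratio as replicate 1, at 86.9% and 87.0%. Without the 5 genes of largest fall the ratios were 90.4 ± 1.7% and 93.9 ± 1.7%. Cytosolic ribosomal proteins, measured in the same way, stood at 100.6 ± 3.4% and 96.6 ± 0.9%.

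**Figure D2:**
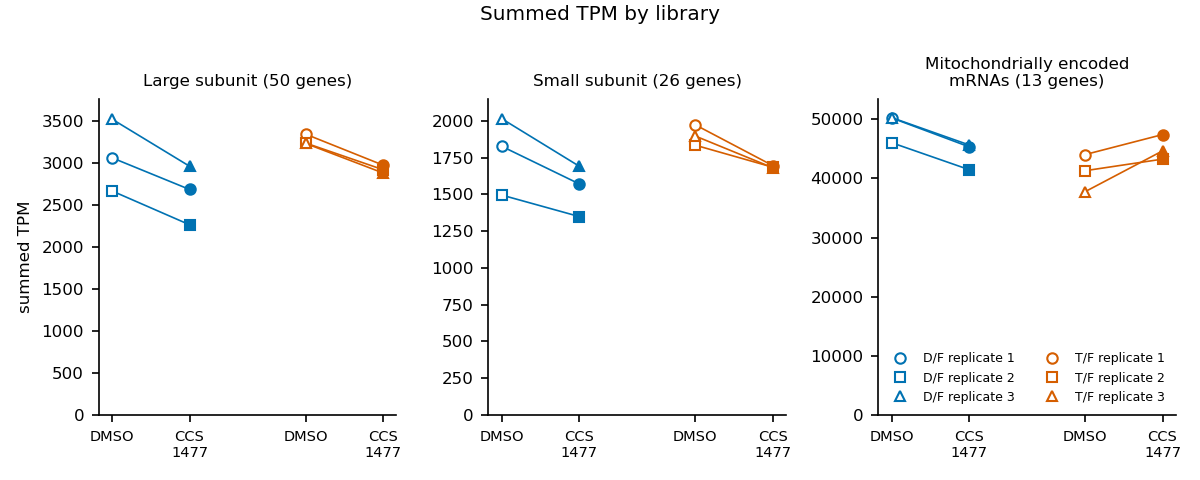
Summed TPM (vertical axis, from 0) of large subunit genes, small subunit genes and the 13 mitochondrially encoded mRNAs in each library, open for DMSO and filled for CCS1477, with a line joining the cells of each mouse. The sums of both subunits were lower with CCS1477 in all 6 mice, while those of the mitochondrially encoded mRNAs were lower in the 3 D/F mice and higher in the 3 T/F mice.

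Large and small subunit genes had similar medians. For comparison with the counts below, 17.6% of all genes fell and 25.8% rose in T/F, and 6.51% fell and 5.14% rose in D/F. Of 50 large subunit genes (with Mrps30 and Mrps18a, which are large subunit proteins despite their names), 16 fell and 4 rose in T/F, and 2 fell in D/F, with medians of -0.13 and -0.19. Of 26 small subunit genes, 8 fell and none rose in T/F, and 1 fell in D/F, with medians of -0.13 and -0.23. Of the 46 genes whose proteins have a bacterial counterpart in the same subunit 16 fell in T/F, and of the 30 without one 8 did, with medians of -0.13 and -0.12. Mrps18a was counted among the 30, since its bacterial relative S18 lies in the small subunit. Mrps36, whose product is now known as a component of 2-oxoglutarate dehydrogenase and not of the ribosome, was kept apart from both subunits.

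Mrpl12 had the lowest mean response of the family. Its protein (L7/L12 in bacteria) forms the flexible stalk that recruits elongation factors, and it has also been described as a partner of the mitochondrial RNA polymerase. In D/F, Mrpl12 was at 137, 85.6 and 179.9 TPM in DMSO and 48.3, 28.0 and 65.0 TPM in CCS1477. In T/F it was at 155, 141 and 146 TPM in DMSO and 59.6, 63.8 and 53.7 TPM in CCS1477. All CCS1477 values lay below all DMSO values in both genotypes, and the level in CCS1477 was 34.7 ± 1.75% of DMSO in D/F and 40.2 ± 4.55% in T/F (SD over 3 mice). The log2 fold change was -1.31 ± 0.09 in T/F (SE, limma adjusted p = 4.49e-04). In D/F it was -1.51 ± 0.39, with a limma adjusted p of 0.0547 that missed the threshold and 0.00429 under the block, the DMSO levels of the 3 D/F mice being widely spread. Mrpl10, the protein that anchors the stalk, was in contrast higher in every mouse. It went from 62.5, 47.9 and 67.0 TPM to 79.0, 62.4 and 86.0 TPM in D/F and from 60.4, 63.1 and 61.2 TPM to 77.5, 80.1 and 73.8 TPM in T/F. It rose in T/F (log2 fold change 0.32 ± 0.06, limma adjusted p = 0.00907), and in D/F the log2 fold change was 0.36 (limma adjusted p = 0.29, and 0.0347 with the block). Mrpl11, at the base of the stalk, was at -0.35 and -0.10, neither passing the test.

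Mrpl19 (bacterial L19, at the bridge between subunits) went from 88.5, 58.6 and 82.7 TPM to 37.5, 27.0 and 47.8 TPM in D/F and from 85.0, 92.8 and 85.0 TPM to 48.1, 43.6 and 39.1 TPM in T/F. Its groups did not overlap in either genotype. The log2 fold change was -0.99 ± 0.09 in T/F (limma adjusted p = 9.73e-04) and -1.03 ± 0.27 in D/F, where the limma adjusted p was 0.0546 and, with the block, 0.00882. Mrpl47 (bacterial L29, near the mouth of the exit tunnel) went from 34.7, 26.0 and 42.3 TPM to 13.3, 19.1 and 22.2 TPM in D/F and from 40.7, 38.0 and 40.2 TPM to 22.4, 20.0 and 21.6 TPM in T/F. It fell in T/F (-0.87, limma adjusted p = 6.65e-04); in D/F, at -0.88, it had an adjusted p of 0.0755 in limma and 0.0311 with the block, replicate 2 showing the smallest change.

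Mrpl36 and Mrpl50 fell in both genotypes. Mrpl36, a small zinc-binding protein with a bacterial counterpart, went from 77.8, 74.4 and 96.7 TPM to 45.4, 38.3 and 53.8 TPM in D/F (log2 fold change -0.85 ± 0.19, limma adjusted p = 0.0392). In T/F it went from 82.4, 82.9 and 80.8 TPM to 53.1, 54.3 and 55.4 TPM (-0.59 ± 0.06, limma adjusted p = 9.73e-04), and the DMSO libraries of the 3 T/F mice were within a few TPM of each other. This is the gene whose printed promoter holds an E-box. Mrpl50, a mitochondria-specific protein, went from 42.3, 37.1 and 43.2 TPM to 24.1, 22.3 and 27.1 TPM in D/F (-0.71 ± 0.15, limma adjusted p = 0.0348). In T/F it went from 38.7, 36.9 and 39.6 TPM to 25.0, 24.1 and 25.6 TPM (-0.60 ± 0.06, limma adjusted p = 0.00118).

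Mrpl3, which lies near the peptidyl transferase centre, and Mrpl44, with its ribonuclease III-like fold, fell in T/F. Mrpl3 was at -0.42 in T/F (limma adjusted p = 0.00439) and -0.48 in D/F (limma adjusted p = 0.158, and 0.0228 with the block). Mrpl44 was at -0.42 in T/F (limma adjusted p = 0.00493) and -0.51 in D/F (limma adjusted p = 0.156, and 0.0213 with the block). Mrpl45, which holds the ribosome to the inner membrane at the tunnel exit, was at -0.14 and -0.01 and passed in neither. Mrps30 fell in T/F (-0.23, limma adjusted p = 0.0207). The other large subunit genes that fell in T/F were Mrpl15, Mrpl16, Mrpl17, Mrpl20, Mrpl23, Mrpl35, Mrpl38 and Mrpl52, with log2 fold changes between -0.63 and -0.21. Mrpl23 did not keep its call with the block (limma adjusted p = 0.0573).

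Mrps18b, Mrps18a and Mrps18c are 3 paralogs of bacterial S18. Mrps18b, in the small subunit, was the 1 gene of the family called at 2-fold or more in D/F, where 4.61% of all genes were called lower at that size. With the mouse as a block Mrpl12 and Mrpl19 were called there too, and leaving out a mouse gave 0 to 2 such genes. It went from 126, 107 and 161 TPM to 49.0, 38.6 and 56.6 TPM in D/F (-1.43 ± 0.22, limma adjusted p = 0.0162). In T/F, where Mrps18b and Mrpl12 were the 2 genes at 2-fold or more (4.70% of all genes), it went from 138, 133 and 142 TPM to 57.4, 51.4 and 62.3 TPM (-1.26 ± 0.09, limma adjusted p = 4.86e-04). Mrps18a, the large subunit paralog, was at -0.39 in D/F without overlap (limma adjusted p = 0.157, and 0.0376 with the block). In T/F it was at -0.12 (limma adjusted p = 0.292), running from -0.17 to -0.06 when single mice were left out. Mrps18c, also of the small subunit, was at 0.08 and 0.10, with limma adjusted p of 0.766 and 0.395. The DMSO and CCS1477 values of Mrps18c overlapped in both genotypes, while those of Mrps18b did not. The 3 paralogs were not tested against each other.

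Of the other small subunit genes, Mrps27, a pentatricopeptide repeat protein, went from 39.9, 27.3 and 44.8 TPM to 21.8, 18.1 and 27.2 TPM in D/F and from 44.6, 42.5 and 44.4 TPM to 25.9, 26.5 and 25.9 TPM in T/F. It fell in T/F (-0.73 ± 0.06, limma adjusted p = 6.26e-04), and in D/F the log2 fold change was -0.70 ± 0.25 (limma adjusted p = 0.113, and 0.0118 with the block). Mrps35, a mitochondria-specific protein, went from 61.0, 55.6 and 69.5 TPM to 42.4, 41.8 and 41.5 TPM in D/F and from 61.8, 65.8 and 64.4 TPM to 48.5, 45.0 and 38.4 TPM in T/F (-0.54, limma adjusted p = 0.00757). Mrps12, the homologue of the bacterial decoding centre protein S12, was at -0.28 and -0.21 and passed in neither. Mrps2, Mrps5, Mrps7, Mrps10 and Mrps34 also fell in T/F, with log2 fold changes between -0.46 and -0.18.

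**Figure D3:**
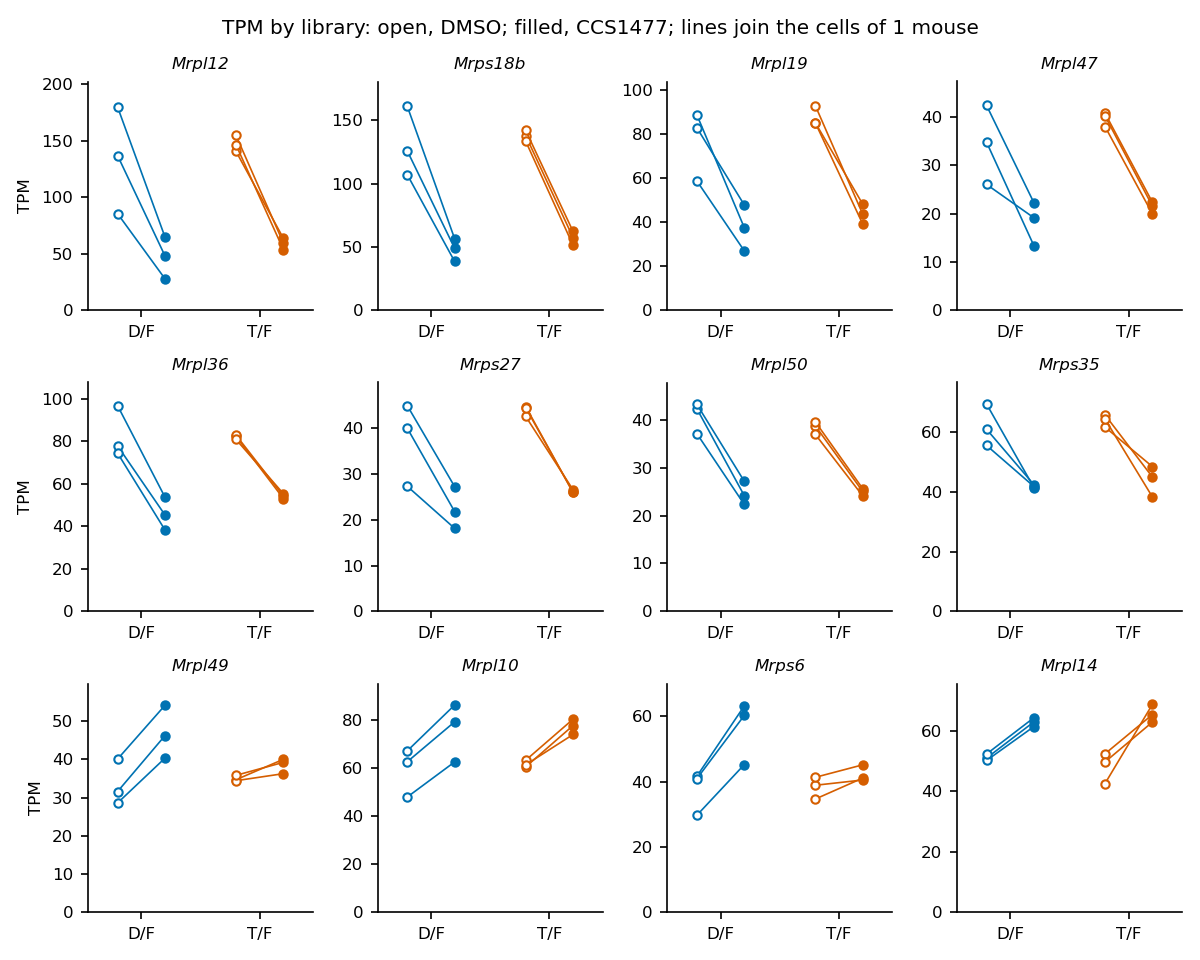
TPM (vertical axes, from 0) in every library for the 8 genes with the lowest mean response and, in the bottom row, the 4 with the highest, open for DMSO and filled for CCS1477, in D/F (blue) and T/F (orange), with lines joining the cells of 1 mouse. All lines of the first 8 genes go down and all lines of the last 4 go up, with D/F starting levels more widely spread than those of T/F for each gene but Mrpl14.

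The 4 genes that rose in T/F were Mrpl14, Mrpl58, Mrpl10 and Mrpl4. Mrpl14 (bacterial L14, at the subunit interface) went from 52.4, 42.5 and 49.7 TPM to 65.3, 68.7 and 62.8 TPM in T/F (0.44 ± 0.09, limma adjusted p = 0.0131). In D/F it went from 51.0, 50.2 and 52.3 TPM to 62.9, 61.4 and 64.3 TPM without overlap (0.29, limma adjusted p = 0.189). Mrpl58, a peptidyl-tRNA hydrolase that frees stalled ribosomes, went from 69.9, 64.9 and 61.5 TPM to 85.0, 87.0 and 85.0 TPM in T/F (0.38 ± 0.07, limma adjusted p = 0.00692), and was at 0.11 in D/F (limma adjusted p = 0.796). Mrps6 (bacterial S6), in D/F, went from 29.8, 41.7 and 41.0 TPM to 45.3, 63.2 and 60.3 TPM without overlap, at 0.57 ± 0.21 (limma adjusted p = 0.127, and 0.0123 with the block), against 0.14 in T/F. Mrpl49 was at 0.48 ± 0.19 in D/F (limma adjusted p = 0.156, and 0.0189 with the block) and 0.13 in T/F.

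The responses of the genotypes lay along a line. Across the 77 genes the log2 fold changes of the genotypes had a Pearson r of 0.908 and a Spearman rho of 0.876, a description across genes, which are not independent replicates. In both genotypes 52 genes were below 0 and 15 above 0, and 10 had opposite signs, with the matching counts over all genes not given here. All 24 genes that fell in T/F were below 0 in D/F. No gene of the family was called different in its response between genotypes (limma, interaction term, 0 called of 77 and 0.00% of all genes), whether or not the mouse was a block. None reached an unadjusted p of 0.05 without the block, where 4.23% of all genes did. With the block 10 genes did (13.0%, beside 14.7% of all genes), led by Mrps6, Mrps36 and Mrpl49, and the lowest limma adjusted p was 0.181. Without the block the smallest unadjusted p values belonged to Mrps6 and Mrps11, both with an adjusted p of 1.00. Over both genotypes together, 24 genes fell and 7 rose (19.6% and 25.8% of all genes), and 37 fell and 10 rose with the block (25.9% and 34.5% of all genes). Leaving out single mice gave 16 to 32 lower and 2 to 8 higher. The genes that rose numbered 4 without D/F replicate 3 (beside 21.6% of all genes) and 3 without T/F replicate 1 or replicate 3 (beside 20.4% and 20.8%). They numbered 2 without T/F replicate 2 (beside 20.6%). Both 16 lower counts came without T/F replicate 2 or replicate 3, at 20.8% of the family, beside 15.9% and 16.3% of all genes. Without D/F replicate 1, D/F replicate 3 and T/F replicate 1, 24.7%, 32.5% and 23.4% of the family were lower. Beside these were 17.2%, 17.1% and 15.9% of all genes. Without D/F replicate 2 there were 32 lower and 8 higher (41.6% and 10.4%, beside 22.8% and 32.6% of all genes), and with the block 38 and 10 (49.4% and 13.0%, beside 25.4% and 34.9%). Mrpl12, Mrps18b and Mrpl19 were the 3 genes at 2-fold or more lower in that fit, and none was at 2-fold or more higher, where 5.70% and 3.10% of all genes were. With each library rescaled to its median gene, 22 fell and 1 rose, and the shares of all genes for that setting are not given here.

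**Figure D4:**
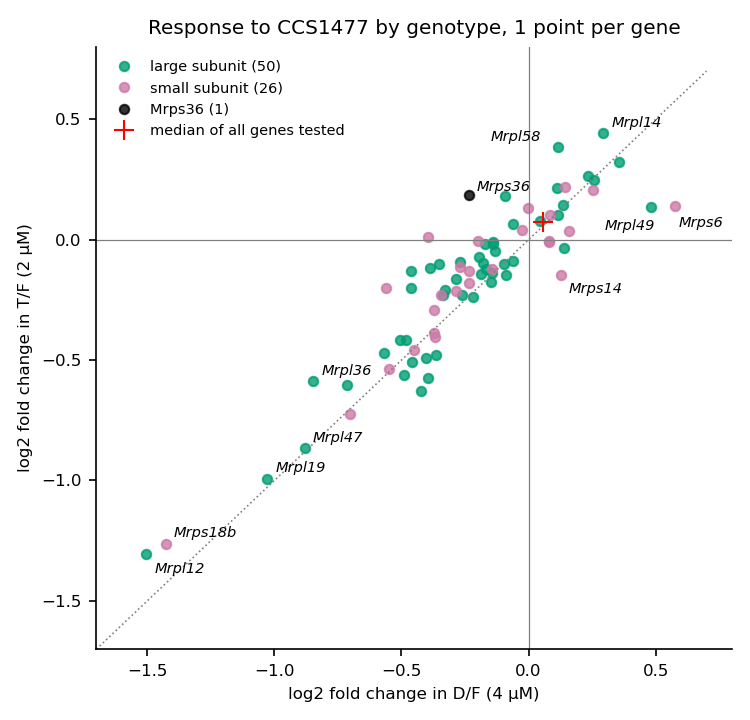
Log2 fold change with CCS1477 in D/F (horizontal axis) and T/F (vertical axis), 1 point per gene, coloured by subunit, with the line of equal response dotted and a red cross at the median of all genes tested. The points follow the line from Mrpl12 and Mrps18b at the lower left to Mrpl14 and Mrps6 at the upper right, with Mrps36 and Mrps14 off the axes on opposite sides.

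Under DMSO no gene of the family was called different between genotypes. None passed the limma test (0 called of 77; 0.0328% of all genes), and 1 gene, or 1.30%, had an unadjusted p under 0.05, against 6.15% of all genes. That gene was Mrps14, at 47.7, 36.9 and 46.5 TPM in D/F and 62.6, 64.2 and 55.4 TPM in T/F, a log2 difference of 0.47 (T/F over D/F) with a limma adjusted p of 0.654. Next was Mrpl52, at 60.0, 105 and 109 TPM and 133, 118 and 141 TPM, a log2 difference of 0.56 (limma adjusted p = 0.827). The T/F values of Mrps14 lay above all D/F values. Mrpl52 also lay higher in all T/F libraries, with D/F replicate 1 far below the others.

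The rest of the mitochondrial translation system was read from lists written with the family in mind. Of 5 mitoribosomal subunits that bear other names, Ptcd3 (-0.60), Chchd1 (-0.55) and Gadd45gip1 (-0.43) fell in T/F and Dap3, a GTP-binding small subunit protein, rose (0.21, limma adjusted p = 0.0486), while none passed in D/F. With the block, the first 3 fell and Dap3 rose in D/F as well. Of 14 translation factors, 4 fell and 1 rose in T/F and 1 fell in D/F, where 6 fell and none rose with the block. Of all genes, 17.6% fell and 25.8% rose in T/F, and 6.51% fell and 5.14% rose in D/F. With the block, 18.0% of all genes fell and 21.4% rose in D/F. The lowest was Lrpprc, which stabilizes mitochondrial messages, at -0.63 in D/F (limma adjusted p = 0.0479) and -0.63 in T/F (limma adjusted p = 0.00126). The highest was Mtif3, an initiation factor, at 0.38 in T/F (limma adjusted p = 0.00949).

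Of 28 assembly factors, 9 fell and 3 rose in T/F and 1 fell in D/F, with medians of -0.03 and -0.04. The shares of all genes lower and higher were 17.6% and 25.8% in T/F, and 6.51% and 5.14% in D/F. With the block, 7 fell and 5 rose in D/F, beside 18.0% and 21.4% of all genes. Mrm3, which methylates the large ribosomal RNA, fell at 2-fold or more in both genotypes, from 15.6 ± 3.19 TPM to 5.27 ± 0.841 TPM in D/F and from 14.9 ± 1.36 TPM to 6.89 ± 1.69 TPM in T/F (SD, n = 3). Its log2 fold changes were -1.40 and -1.03, with limma adjusted p of 0.0138 and 0.00455. C1qbp, a matrix protein needed for mitochondrial translation, fell in T/F (-1.13, limma adjusted p = 6.05e-04) and was at -1.24 in D/F, missing the threshold there (limma adjusted p = 0.117, and 0.00869 with the block). Mettl15, a small subunit RNA methyltransferase, was the highest and rose in T/F (0.71, limma adjusted p = 0.00423).

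Of 4 genes for transcription of mitochondrial DNA, Tefm, the elongation factor, fell in both genotypes (-0.78 in D/F, limma adjusted p = 0.0237, and -0.59 in T/F, limma adjusted p = 0.00798). Tfb2m fell in T/F (-0.48, limma adjusted p = 0.00707). Among all genes, 6.51% fell in D/F and 17.6% in T/F. The polymerase gene Polrmt and Tfam passed in neither genotype. None of the 13 mitochondrially encoded mRNAs, the messages the ribosome reads, passed in either genotype without the block, and with it 1 was lower in D/F (mt-Nd1) and 1 higher in T/F (mt-Co2). With the block, 18.0% of all genes were lower in D/F and 31.2% higher in T/F. The values of the 13 mRNAs ran in different directions, with 13 of 13 below 0 in D/F (median -0.21) and 12 of 13 above 0 in T/F (median 0.15). None was called different in its response between genotypes (lowest limma adjusted p of 1.00, and 0.210 with the block). Without the block, 6 of the 13 had an unadjusted limma p under 0.05 there, beside 4.23% of all genes. Under DMSO all 13 were already lower in T/F than in D/F (median log2 difference -0.24). None of these was called, and 5 had an unadjusted limma p under 0.05, beside 6.15% of all genes. By mean response the lowest was mt-Nd3, at -0.23 in D/F and -0.11 in T/F, and the highest mt-Co1, at -0.06 and 0.16.

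**Figure D5:**
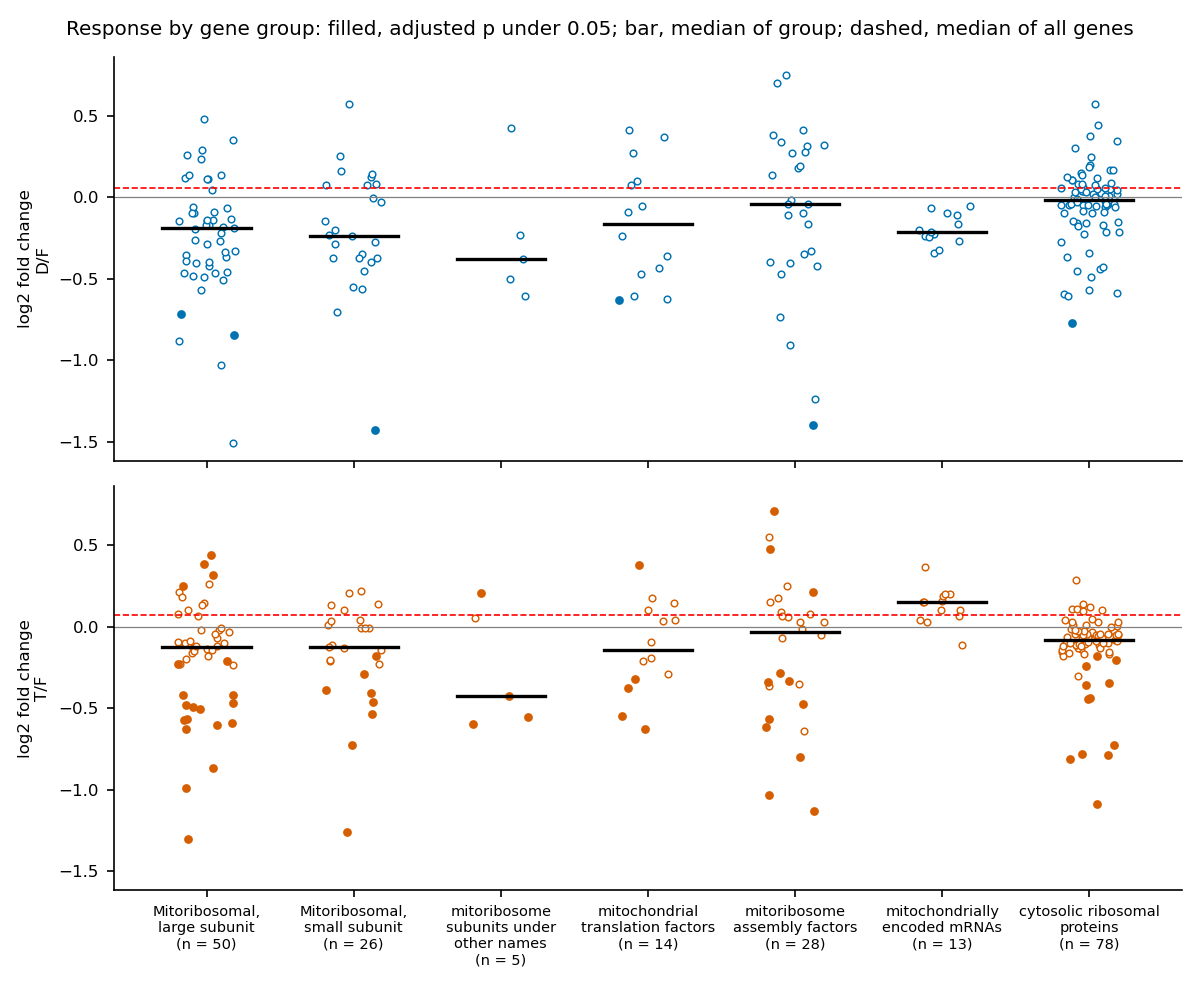
Log2 fold change with CCS1477 (vertical axes, D/F above and T/F below) of each gene in 7 groups, with filled points for an adjusted p under 0.05, a black bar at the median of the group and a red dashed line at the median of all genes tested. Both mitoribosomal subunits have medians below the dashed line in either genotype, and the mitochondrially encoded mRNAs lie below it in D/F and mostly above it in T/F.

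The 78 cytosolic ribosomal protein genes, fitted in the same way, held 1 lower and 0 higher gene in D/F (median -0.01) and 12 lower and 0 higher in T/F (median -0.08). Beside them, 6.51% of all genes were lower and 5.14% higher in D/F, and 17.6% lower and 25.8% higher in T/F. The steepest was Rpl12 in T/F (-1.09, limma adjusted p = 0.00103). Myc, whose product is a known activator of ribosomal and mitochondrial genes, went from 300.3, 468 and 367 TPM to 20.7, 17.8 and 19.0 TPM in D/F and from 265, 229.5 and 311 TPM to 24.9, 19.3 and 27.1 TPM in T/F. Its log2 fold changes were -4.21 ± 0.20 and -3.44 ± 0.16 (limma adjusted p = 0.00131 and 3.11e-04). Its part in the response of the mitoribosomal genes was not tested.

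The genes were also grouped by the motifs in their promoters, as a description with no test. The grouping lacks the 9 genes without a window. Of these, Mrpl15, Mrpl19, Mrpl38, Mrps34 and Mrps35 fell in T/F, Mrpl4 rose, and Mrpl13, Mrpl54 and Mrps28 were not called. The 25 genes with an ETS core had a median response of -0.17 on the log2 scale in D/F and -0.12 in T/F, against -0.22 and -0.10 for the 43 matched genes without it. The 5 genes with an E-box were at -0.27 and -0.09, against -0.19 and -0.12 for the 63 without. In T/F, 2 of the 5 and 17 of the 63 fell, beside 17.6% of all genes. The 12 genes with a YY1 core had medians of -0.35 and -0.12, against -0.17 and -0.12 for the 56 without it. The 7 genes with an NRF1 core had medians of -0.10 in either genotype, against -0.20 and -0.12 for the 61 without it. In T/F, 5 of the 25 genes with an ETS core fell, and 14 of the 43 without it. For the YY1 core 4 of 12 and 15 of 56 fell, and for the NRF1 core 2 of 7 and 17 of 61. Mrpl12 and Mrpl14, the extremes of the family, were alike in having none of the 4 motifs in the window.

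A divergent neighbour was a protein-coding gene on the other strand that starts upstream of the gene's own start, within 1000 bp. Pairs whose first parts overlap, such as Mrpl46 with Mrps11, were not counted. Such a neighbour was found for 18 of the 77 genes (23.38%), against 10.11% of 12855 protein-coding genes in the table (GENCODE vM21). Of 5 genes that fell in T/F and had such a neighbour, the neighbour fell for 1 (Mrps27 with Ptcd2) and rose for 2. In T/F, 17.6% of all genes fell and 25.8% rose. The following pair was chosen after its values were seen. Mrps18b (GRCm38 chr17:35910379-35916389, minus strand) starts 45 bp from Ppp1r10, a nuclear regulatory subunit of protein phosphatase 1 on the plus strand. Ppp1r10 went from 149.6, 123 and 128 TPM to 211, 194 and 178 TPM in D/F and from 112, 109 and 104 TPM to 166, 158 and 166 TPM in T/F. It rose in T/F (log2 fold change 0.59, limma adjusted p = 0.00134) and was at 0.54 in D/F (limma adjusted p = 0.0727), while Mrps18b fell in both. Exons of 32 of the 77 genes overlap another gene, among them Mrpl12 with Gm16755, Mrpl19 with Gcfc2, Mrpl36 with Ndufs6 and Mrps18b with Gm16279 on the opposite strand, and Mrps6 with Slc5a3 on its own strand. As strand-specific counting is not stated, the values of these genes are uncertain to that degree.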

How the data were processed

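RNA was sequenced from 12 libraries, 3 mice in each of 4 groups, grouped by the genotype and treatment given in the labels. The labels name both ribosomal RNA depletion and an mRNA kit. The authors deposited 1 table of TPM, made with kallisto and the build mm10 (submitters' processing notes) and AltAnalyze, without genes of low expression; versions of kallisto and its annotation are not given in the sources used here. TPM values were used as log2(TPM + 1), so fold changes of low genes are understated. Genes whose mean reached 1 TPM in any group compared were fitted with limma 3.58.1 (R 4.3.3) within the groups compared, with Benjamini-Hochberg adjustment over all of them; the fit was tested on simulated data. All 77 mitoribosomal genes passed the filter in every comparison. Depth is unknown, and precision is limited by 3 mice per group.

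The mouse as a block was the alternative. Deviations of the DMSO and CCS1477 libraries of a mouse correlated at 0.539, 0.669 and 0.541 in D/F and at 0.383, 0.354 and 0.496 in T/F, and at most 0.141 between mice. Deviations from a group mean cancel within the group, so positive values within mice pull those between mice down. The low values between mice are thus no separate sign of pairing. Other alternatives were the pseudocount, the filter, rescaling, quantile normalization, a trended prior, a fit shared by the 4 groups and leaving out each mouse. Genes were named by a rule: the 8 lowest and 4 highest mean responses, the 4 highest and 2 lowest DMSO levels, calls at 2-fold, the 2 smallest p values of the difference and of the genotype comparison, genes of stated roles, Myc, and the extremes of each list. The genes, lists and rule were chosen with earlier results of these data known. Identifiers were matched through GENCODE vM21 (15252 of 15651).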

Additional observations from a re-analysis of the deposited data

Results flagged for a closer look

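Mrps14 and Mrps36 moved in opposite directions in the genotypes, in every mouse. Mrps14 was at 0.13 in D/F and -0.14 in T/F on the log2 scale, the D/F value being 0.07 without D/F replicate 1, and the difference (T/F minus D/F) was -0.27, with a limma adjusted p of 1.00 and 0.284 with the mouse as a block. Mrps36 was at -0.24 in D/F and 0.18 in T/F, a difference of 0.42, with a limma adjusted p of 1.00 and 0.188 with the block. Neither difference passed the test. Such opposite movement was seen in 2 of 77 genes (2.60%), against 2.06% of all genes tested.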

How the results depend on the processing

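The direction of the family did not depend on scaling: with each library rescaled to its median gene, the median log2 fold change was -0.27 (D/F) and -0.20 (T/F), and after quantile normalization -0.17 (D/F) and -0.10 (T/F). Counts did. In D/F, genes called lower numbered 20 with the replicate block, 16 with the fit shared by 4 groups, 6 with the trended prior, 6 with the filter at 5 TPM and 1 with rescaling; genes called higher numbered 3 with the block and 3 with the shared fit; genes at 2-fold or more numbered 3 with the block, the shared fit, the trend and the 5 TPM filter. The block without D/F replicate 2, an alternative chosen after seeing the data, gave 10 lower, 2 higher and 3 at 2-fold in D/F, and 38 lower over both genotypes. Of all genes, 15.2% were then lower, 17.8% higher and 6.24% lower at 2-fold in D/F, and 25.4% were lower over both genotypes. In T/F, 13 fell in the shared fit, and those that rose numbered 1 in the shared fit, 2 with rescaling, 7 with the trend, 8 with the 5 TPM filter and 8 with quantile normalization. Over both genotypes, 37 fell with the block and 1 rose with rescaling. Leaving out each mouse gave 0 to 7 genes lower in D/F (0 without replicate 1 and without replicate 3, when no gene at all passed, and 7 without replicate 2), 0 to 2 at 2-fold and a median of -0.23 to -0.22; in T/F, 12 to 19 lower and 0 to 2 higher; over both, 16 to 32 lower and 2 to 8 higher. Mrps11 in T/F, at 0.01, went to -0.0646 with rescaling and -0.0029 with quantile normalization, and from -0.0103 to 0.0399 without single mice; Mrpl45 in T/F ran from -0.0631 to 0.0408. No difference between responses and no genotype difference was called under any of these. TPM without counts leaves the depth behind low genes unknown.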
